A study of Rattus norvegicus with 8 samples.

Results

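The 6 liver enzymes described here break down tryptophan, phenylalanine and tyrosine: Tdo2, Ido2, Kmo and Haao of the kynurenine pathway, and Hpd and Fah of tyrosine breakdown. They were picked by symbol from the authors' deposited table, which held 2462 genes, and each of the 6 matched 1 gene. Liver RNA came from 8 wild type rats of the inbred Fischer 344 strain, all 1 year old. The 4 CSAA rats ate a choline-sufficient, amino acid-defined diet, and the 4 CDAA rats ate the choline-deficient form of it and carried hepatocellular carcinoma. The labels give neither the sex of the rats nor whether tumour was dissected from the surrounding liver, and bulk RNA cannot tell fewer cells of a type from less RNA per cell. Diet and tumour differ together between the groups, so their parts cannot be told apart. The authors' deposited table gives 1 value per diet group and no value per rat, and all its genes had passed a limit of 0.01 in DESeq2, edgeR and Cufflinks.

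Most dietary tryptophan that is not built into protein is broken down in hepatocytes along the kynurenine pathway, which also supplies quinolinate for the synthesis of NAD. Tdo2 and Ido2 open the tryptophan ring, Kmo hydroxylates kynurenine, and Haao opens the ring of hydroxyanthranilate to the precursor of quinolinate. Phenylalanine is hydroxylated to tyrosine, tyrosine loses its amino group to become hydroxyphenylpyruvate, Hpd converts that to homogentisate, and Fah ends the route by splitting fumarylacetoacetate into fumarate and acetoacetate. Loss of Fah causes hereditary tyrosinaemia in humans, and Hpd is the enzyme that the drug nitisinone blocks.

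All 6 enzymes were lower in the CDAA livers, each by at least 2-fold, where 42.9% of the genes of the authors' deposited table were lower and 24.9% were lower by at least 2-fold. The DESeq2 log2 fold changes (CDAA over CSAA) of the 6 ran from -1.83 to -1.02 with a median of -1.24 in the authors' deposited table. Over all 2462 genes of the authors' deposited table the median was 1.01, and over its 1055 lower genes it was -1.08. The table holds called genes only and the 6 were picked from it, so this count describes them and carries no test of the group.

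Upstream sequences are shown for the members whose RefSeq start coincides with the outer end of the gene, so that they can be set side by side. Whether the enzymes share regulation was not tested. RefSeq (assembly GRCr8) gave a promoter window for 5 of the 6; Ido2 was not among them. The starts that anchor the windows of Kmo and Fah lie 181 and 103 bases inside the annotated gene, so these windows are not printed. The 250 bases before the start are given 5′ to 3′ on the gene's strand, for Tdo2 (chr2:169585587-169585836, minus strand), Haao (chr6:16598075-16598324, plus strand) and Hpd (chr12:39041996-39042245, plus strand), with motif matches in capitals.
Tdo2: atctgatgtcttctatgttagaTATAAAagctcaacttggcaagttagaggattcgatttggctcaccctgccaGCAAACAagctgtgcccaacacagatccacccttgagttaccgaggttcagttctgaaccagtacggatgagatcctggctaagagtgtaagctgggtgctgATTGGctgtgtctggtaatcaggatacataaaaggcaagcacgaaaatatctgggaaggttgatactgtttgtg
Haao: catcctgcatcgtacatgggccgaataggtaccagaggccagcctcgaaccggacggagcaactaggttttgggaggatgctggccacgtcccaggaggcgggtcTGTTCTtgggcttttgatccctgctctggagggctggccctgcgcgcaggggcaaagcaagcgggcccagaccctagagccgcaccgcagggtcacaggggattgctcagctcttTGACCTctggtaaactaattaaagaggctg
Hpd: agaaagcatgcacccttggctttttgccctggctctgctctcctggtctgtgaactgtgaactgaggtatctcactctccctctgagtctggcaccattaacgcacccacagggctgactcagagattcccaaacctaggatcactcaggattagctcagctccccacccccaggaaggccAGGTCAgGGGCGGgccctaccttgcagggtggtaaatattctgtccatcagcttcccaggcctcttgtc

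The capitals mark matches, on either strand, to 8 short motifs. They were the TATA box (TATAAA), the CCAAT box (CCAAT), the GC box (GGGCGG), the nuclear receptor core (AGGTCA), the glucocorticoid receptor core (AGAACA), the AhR core (GCGTG), the FOXA core (TGTTTNC) and the C/EBP core (TTGCNNAA). No match overlapped another in the printed windows. Tdo2 held TATAAA from -228 to -223, TGTTTNC from -176 to -170 and CCAAT from -74 to -70, counted back from the start. Hpd held AGGTCA from -69 to -64 and GGGCGG from -62 to -57. Haao held AGAACA from -145 to -140 and AGGTCA from -30 to -25.

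No motif of the 8 was found in more than 2 of the 5 windows. Those of Kmo and Fah are anchored 181 and 103 bases inside the annotated gene. Part of each of these windows therefore lies within the gene and not upstream of it. AGGTCA was in the windows of Haao and Hpd and in 14.1% of 33469 rat promoters of the same length, and CCAAT was in those of Tdo2 and Kmo and in 34.0% of all. GGGCGG was in Fah and Hpd against 30.5% of all promoters, with 5 copies in Fah, whose window was 69.2% G and C where the mean over all promoters was 52.2%. The motifs seen in 1 window were TATAAA (12.9% of all promoters) and TGTTTNC (18.3%) in Tdo2, AGAACA (17.5%) in Haao and GCGTG (25.9%) in Fah. TTGCNNAA, present in 9.22% of all promoters, was in none of the 5. These are letter matches and say nothing of binding.

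Tdo2, tryptophan dioxygenase, carries the first step of the kynurenine pathway in hepatocytes. In the authors' deposited table Tdo2 (ENSRNOG00000011612; rn6 chromosome 2, 180897010 to 180914940) stood at 642 FPKM in CSAA and 265 in CDAA. FPKM counts sequenced fragments per length of transcript and per size of library. Its DESeq2 log2 fold change was -1.23 ± 0.26 (SE; adjusted p = 1.37e-05, authors' deposited table). By that fold the CDAA livers kept 42.7% of the CSAA level, with an approximate 95% interval (fold ± 1.96 SE) of 30.2% to 60.3%. The SE of Tdo2 was the widest of the 6, beside a mean normalised count of 11588 over all rats in the authors' deposited table.

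Ido2, indoleamine dioxygenase, catalyses the same ring opening and is a weakly active relative of Ido1, whose gene lies next to it in GRCr8 and was not in the table. Ido2 (ENSRNOG00000025365; chromosome 16, 72268942 to 72289156) was at 5.59 FPKM in CSAA and 1.52 in CDAA, as the authors' deposited table gives it. Its log2 fold change of -1.83 ± 0.25 (SE; DESeq2 adjusted p = 3.37e-12) was the steepest of the 6 in the authors' deposited table, leaving 28.0% of the CSAA level (95% interval 20.1% to 39.2%). It was also the least expressed, with a mean normalised count of 66.0 in the authors' deposited table against at least 1493 for the other 5. Tdo2 exceeded Ido2 by 115 times in CSAA and by 175 times in CDAA, as ratios of the FPKM in the authors' deposited table.

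Kmo, kynurenine monooxygenase, is a mitochondrial outer membrane enzyme that commits kynurenine to the branch leading to NAD. Kmo (ENSRNOG00000003709; chromosome 13, 93684436 to 93716227) fell from 70.1 FPKM to 22.4 in the authors' deposited table. The log2 fold change was -1.67 ± 0.14 (SE; DESeq2 adjusted p = 1.86e-32, authors' deposited table), the smallest SE and the smallest adjusted p of the 6. The CDAA livers kept 31.5% of the CSAA level (95% interval 26.2% to 37.9%). For Kmo and Ido2 the whole interval lay beyond a 2-fold fall; for Tdo2, Haao, Hpd and Fah it reached smaller changes.

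Haao, hydroxyanthranilate dioxygenase (ENSRNOG00000031263; chromosome 6, 7045151 to 7058314), stood at 219 FPKM under CSAA and 104 under CDAA in the authors' deposited table. Its log2 fold change was -1.08 ± 0.15 (SE; DESeq2 adjusted p = 7.08e-12, authors' deposited table), which leaves 47.2% of the CSAA level (95% interval 38.6% to 57.7%). Haao and Fah were the members nearest to a 2-fold change.

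Hpd, hydroxyphenylpyruvate dioxygenase (ENSRNOG00000001338; chromosome 12, 38828443 to 38839969), had the highest level of the 6, 667 FPKM under CSAA and 280 under CDAA in the authors' deposited table. It fell by 1.25 ± 0.18 on the log2 scale (SE; DESeq2 adjusted p = 1.26e-10, authors' deposited table), to 42.1% of the CSAA level (95% interval 32.9% to 53.8%). Fah, fumarylacetoacetate hydrolase (ENSRNOG00000013223; chromosome 1, 146713675 to 146736261), dropped from 266 FPKM to 130 in the authors' deposited table. Its log2 fold change, -1.02 ± 0.15 (SE; DESeq2 adjusted p = 8.68e-10, authors' deposited table), was the smallest of the 6 and leaves 49.3% (95% interval 40.0% to 60.9%).

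**Figure D1:**
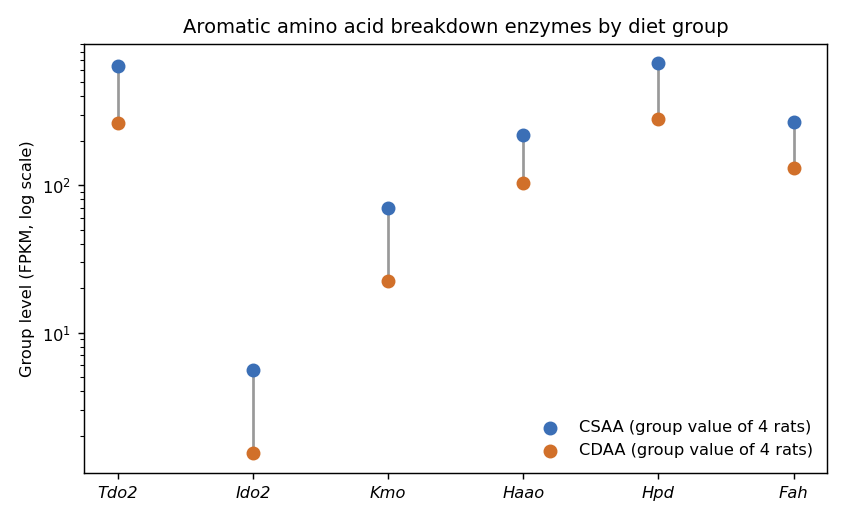
Group level of the 6 enzymes (y axis, FPKM on a log scale; 1 authors' value per diet group of 4 rats, no error deposited), with a line joining the CSAA and CDAA values of each gene. The CDAA value lies below the CSAA value for all 6, from Hpd (667 and 280 FPKM) to Ido2 (5.59 and 1.52 FPKM).

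Ordered by FPKM, the 6 stood as Hpd, Tdo2, Fah, Haao, Kmo and Ido2 in both diet groups of the authors' deposited table. With no spread between rats in that table, the order of neighbours such as Hpd and Tdo2 could not be tested. Hpd and Tdo2 ranked 52 and 54 of the 2462 genes by CSAA level in the authors' deposited table, and 50 and 55 by CDAA level. Ido2 ranked 1135 in CSAA and 2102 in CDAA in the authors' deposited table. By steepness of fall the ranks among all genes of the authors' deposited table were 145 for Ido2, 185 for Kmo, 388 for Hpd, 401 for Tdo2, 525 for Haao and 595 for Fah. The plot of level against change shows 5 of the 6 above the median CSAA level of the lower genes, 42.4 FPKM in the authors' deposited table, with Kmo the closest to it and Ido2 below it.

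**Figure D2:**
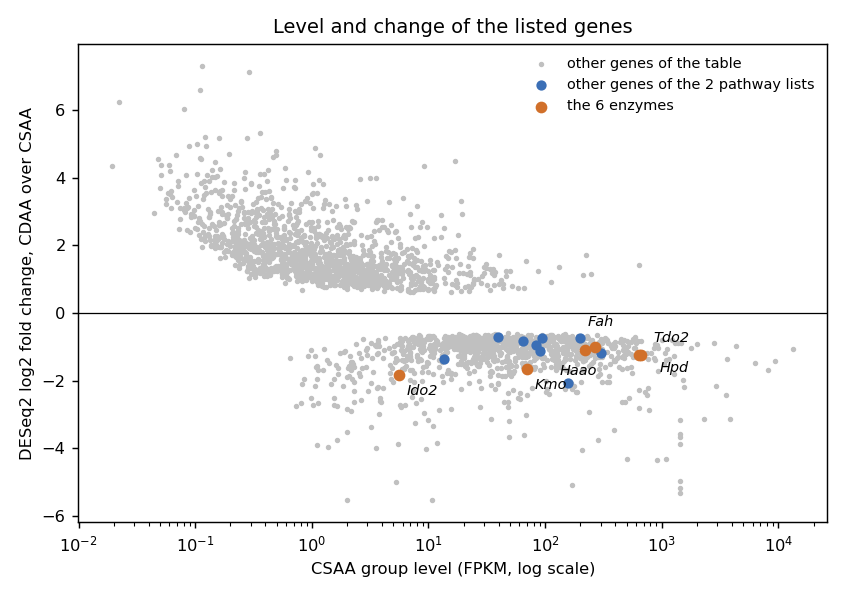
CSAA group level (x axis, FPKM, log scale) against the DESeq2 log2 fold change (y axis) for the genes of the authors' table with a CSAA value above 0; 17 genes at 0 are not drawn. The 6 enzymes (orange) lie between -1.83 and -1.02, and 5 of them at CSAA levels of 70.1 FPKM or more; the empty band around 0 comes from the selection of the table.

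The 3 programs of the authors' deposited table gave nearly the same folds for the 6. The edgeR log2 fold change differed from that of DESeq2 by at most 0.06 and the Cufflinks ratio by at most 0.05 in the authors' deposited table. In that table none of the 6 Cufflinks loci held a further gene of the table. In GRCr8 a long non-coding RNA gene overlapped each of Kmo, Haao and Hpd, and small RNA genes overlapped Tdo2; with no strand setting given in the sources used here, their reads cannot be told apart.

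Most other genes of the kynurenine pathway were lower as well. The authors' deposited table held 11 of the 13 genes in the list, and all 11 were lower in CDAA, 7 of them by at least 2-fold. Without the 4 members it held 7 of 9, all lower, 3 of them by at least 2-fold. Of all its genes 42.9% were lower and 24.9% were lower by at least 2-fold. Kynu, kynureninase, which cleaves hydroxykynurenine between the Kmo and Haao steps, had the steepest fall of the list. The authors' deposited table gave Kynu 158 FPKM in CSAA, 36.9 in CDAA and a log2 fold change of -2.07 ± 0.20 (SE; DESeq2 adjusted p = 2.78e-22). Upstream of Kmo, the formamidase Afmid, which releases kynurenine, was at -0.84 ± 0.23 (65.0 to 35.9 FPKM) in the authors' deposited table. The listed aminotransferases able to make kynurenic acid were Aadat at -1.11 ± 0.32, Kyat3 at -0.96 ± 0.15 and Got2 at -0.74 ± 0.11 in the authors' deposited table. Got2 serves chiefly as the mitochondrial aspartate aminotransferase.

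Beyond Haao the route forks. Qprt, which turns quinolinate into the NAD precursor nicotinate mononucleotide, was at -0.73 ± 0.14 (94.2 to 57.2 FPKM) in the authors' deposited table. Acmsd, which draws the intermediate away from quinolinate towards oxidation, was at -1.35 ± 0.33 (13.6 to 4.95 FPKM) in the authors' deposited table. On the oxidation side 3 of the 7 genes in the glutaryl-CoA list were in the authors' deposited table, all lower, where 42.9% of all genes were lower. Dhtkd1, a dehydrogenase subunit, was at -1.32 ± 0.18 and Hsd17b10 at -0.92 ± 0.16. The Cufflinks log2 ratio of Dhtkd1 was smaller, -1.21, and its mean counts differed between programs, as given under processing. Ido1 and Kyat1 of the kynurenine list were not in the table; genes outside it were not analysed here, and absence from it does not show that a gene was unchanged.

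**Figure D3:**
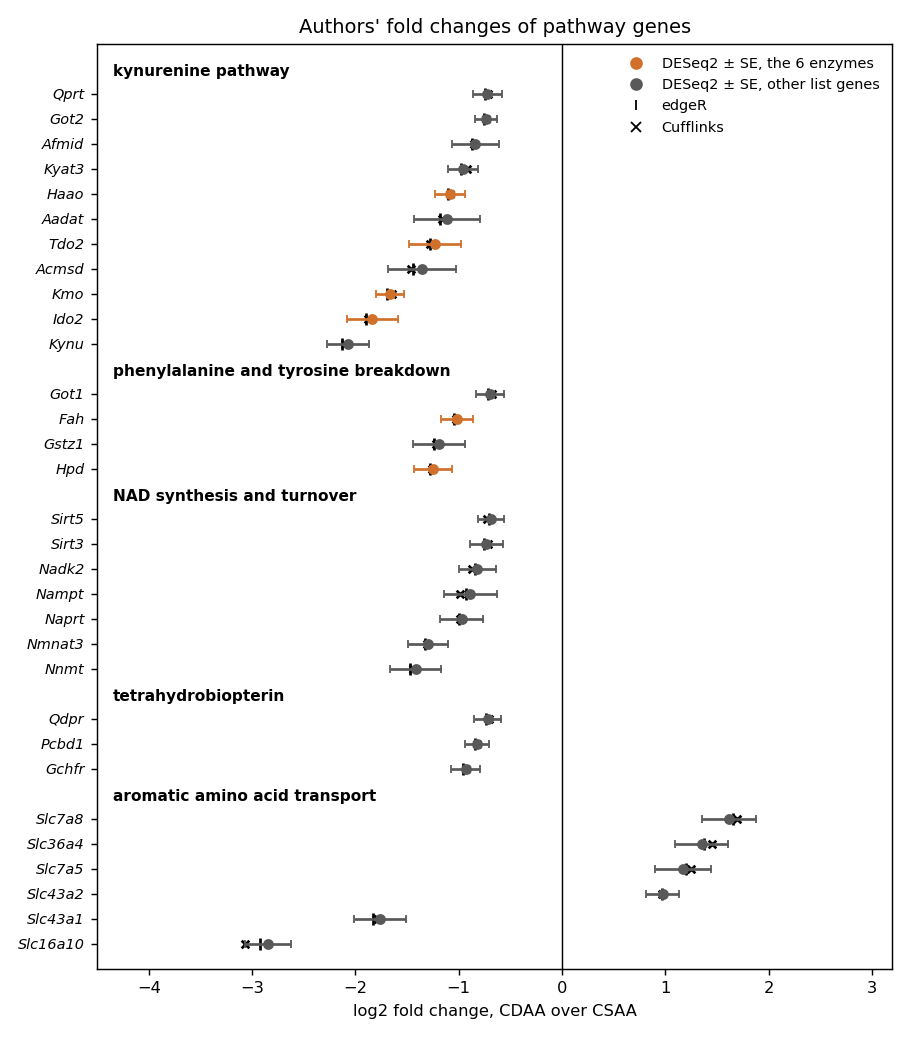
Log2 fold change of CDAA over CSAA (x axis) for the listed genes of 5 lists (rows); circles are the authors' DESeq2 values with bars of 1 SE, vertical ticks their edgeR and crosses their Cufflinks values. All genes of the upper 4 lists lie below 0, from -2.07 (Kynu) to -0.69 (Sirt5), and the transport list holds both signs, from Slc16a10 at -2.84 to Slc7a8 at 1.62.

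The authors' deposited table held 4 of 8 genes listed for phenylalanine and tyrosine breakdown, and all 4 were lower, 3 of them by at least 2-fold. The shares over all its genes were 42.9% lower and 24.9% lower by at least 2-fold. Gstz1, the maleylacetoacetate isomerase that hands its product to Fah, fell from 304 to 130 FPKM, or -1.19 ± 0.25 (SE; DESeq2 adjusted p = 2.00e-05), in the authors' deposited table. Got1, a cytosolic aspartate aminotransferase that can also act on tyrosine, was at -0.70 ± 0.14 in the authors' deposited table. Tat, the main tyrosine aminotransferase, and Hgd, homogentisate dioxygenase, which acts between Hpd and Gstz1, were not in the table, nor were Hpdl and Il4i1. Of 8 genes for tetrahydrobiopterin, a cofactor of aromatic amino acid hydroxylases, 3 were in the authors' deposited table: Gchfr, the feedback regulator of its synthesis (-0.93 ± 0.14), Pcbd1 (-0.82 ± 0.11) and Qdpr (-0.72 ± 0.13), the last 2 being recycling enzymes. None of these 3 reached 2-fold.

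Genes that make or use NAD outside the tryptophan route were counted next. The authors' deposited table held 7 of 19, all lower, 2 by at least 2-fold; of all its genes 42.9% were lower and 24.9% lower by at least 2-fold, and the 2 of 7 is near that second share. Nnmt, which methylates nicotinamide, was at -1.42 ± 0.24 and the mitochondrial adenylyltransferase Nmnat3 at -1.29 ± 0.19 in the authors' deposited table. Naprt, the entry enzyme for nicotinic acid, was at -0.97 ± 0.21 and Nampt, that for nicotinamide, at -0.89 ± 0.25 in the authors' deposited table. The mitochondrial NAD kinase Nadk2 (-0.82 ± 0.18) and the NAD-dependent deacylases Sirt3 (-0.73 ± 0.16) and Sirt5 (-0.69 ± 0.13) were the other 3 in the authors' deposited table. Serotonin and aromatic amine genes were represented by 1 of 10: only Aldh2, a broadly acting aldehyde dehydrogenase, was in the authors' deposited table, at -1.03 ± 0.24 (581 to 281 FPKM).

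Transporters of aromatic amino acids went both ways: of 9, 4 were higher and 2 lower in the authors' deposited table, where 57.1% of all genes were higher. Slc16a10, which carries aromatic amino acids across the hepatocyte membrane, fell from 15.5 to 1.85 FPKM, or -2.84 ± 0.22 (SE; DESeq2 adjusted p = 6.33e-35), in the authors' deposited table. Slc43a1, a carrier of large neutral amino acids, fell from 14.5 to 4.24 FPKM, or -1.76 ± 0.25, in the authors' deposited table. The 4 risers were Slc7a8 (1.62 ± 0.26), Slc36a4 (1.35 ± 0.26), Slc7a5 (1.17 ± 0.27) and Slc43a2 (0.97 ± 0.16), none above 5.24 FPKM with either diet in the authors' deposited table.

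Kynurenine is a ligand of the aryl hydrocarbon receptor AhR, so its genes were listed too. Of 9, 2 were higher and 2 lower in the authors' deposited table, where 57.1% of all genes were higher. Cyp1a2, a hepatocyte target gene of AhR, fell from 50.5 to 13.2 FPKM (-1.88 ± 0.27) and Arnt, the partner protein of AhR, was at -0.72 ± 0.11, in the authors' deposited table. Cyp1b1 was at 3.37 ± 0.54, with 3.98 by edgeR, from a CSAA level of 0.0567 FPKM, and Nqo1, also a target of NRF2, at 2.30 ± 0.35, in the authors' deposited table. Ahr, Ahrr, Cyp1a1, Tiparp and Aldh3a1 were not in the table.

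Over the 7 lists around the aromatic amino acids, 36 of 76 genes were in the authors' deposited table, with 30 lower and 6 higher. Over the 5 lists of other amino acid routes (the glutaryl-CoA branch, branched-chain, histidine to glycine, lysine and proline, and sulphur amino acids), 28 of 65 genes were in the authors' deposited table, 27 lower and 1 higher. Shares over all genes of that table were 42.9% lower and 57.1% higher, and the lists were not tested against them. The median log2 fold change of those 28 was -1.15 in the authors' deposited table, beside -1.11 for the 11 kynurenine genes and -1.11 for the 4 of phenylalanine and tyrosine. The 1 riser, named after its value was seen, was Pycr1 (2.29 ± 0.35 in the authors' deposited table), which makes proline rather than breaking it down. The 27 lower genes were not sorted in the same way, and the lists are not limited to enzymes that carry out breakdown steps. The steepest falls per list in the authors' deposited table were those of Bhmt (-3.14 ± 0.24) and Gnmt (-2.54 ± 0.33) for sulphur amino acids, and Aass (-2.51 ± 0.23) and Prodh1 (-2.38 ± 0.36) for lysine and proline. Ftcd (-2.04 ± 0.33) and Pipox (-1.59 ± 0.17) led the histidine to glycine list, and Bckdk (-1.13 ± 0.24) and Ivd (-1.02 ± 0.18) the branched-chain list, in the authors' deposited table. The larger falls of some of these genes than of the 6 enzymes were not tested.

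**Figure D4:**
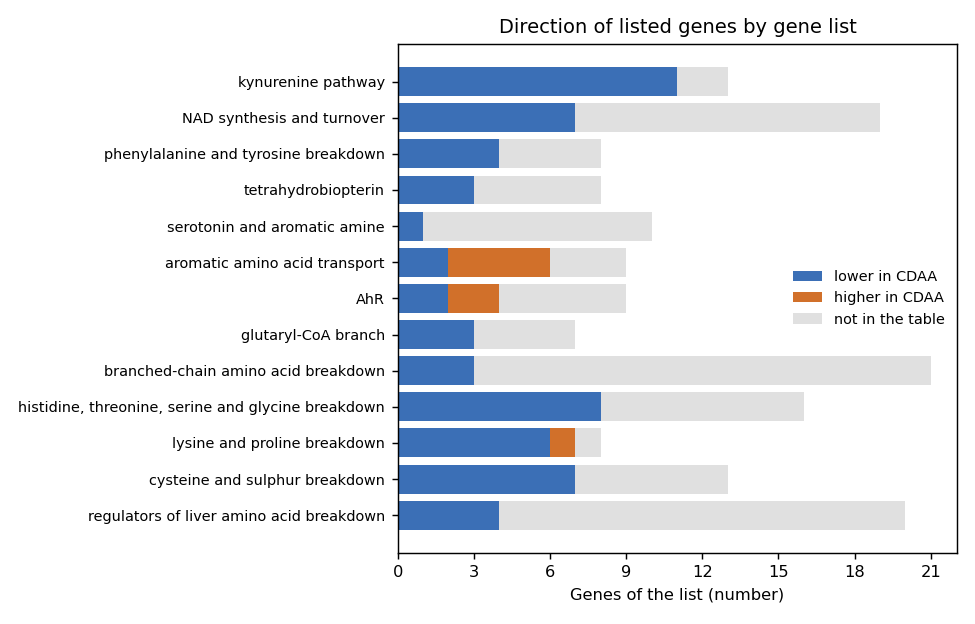
Number of genes (x axis) in each of 13 gene lists (rows) that were lower in CDAA, higher in CDAA or not in the authors' table. All 11 listed kynurenine genes and all 4 listed phenylalanine and tyrosine genes are in the lower class, which holds 42.9% of all genes of the table. The transport, AhR, and lysine and proline lists hold both directions.

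Transcription factors and receptors known to act on hepatocyte amino acid breakdown were listed for 4 of 20 in the authors' deposited table, and all 4 were lower. Of all its genes 42.9% were lower. Nr1h4, the bile acid receptor, was at -1.48 ± 0.14 and Gcgr, the glucagon receptor, at -1.07 ± 0.19 in the authors' deposited table. Nr3c1, the glucocorticoid receptor through which steroid hormones raise Tdo2 and Tat in rat liver, was not in the table, nor were Cebpa, Cebpb and Ppara.

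Markers of the cells that the tissue could hold moved as well. Hepatocyte markers were in the authors' deposited table for 2 of 8, Ttr (-1.08 ± 0.13) and Hnf4a (-0.76 ± 0.19), both lower, with summed levels of 13622 FPKM for CSAA and 6466 for CDAA. In the authors' deposited table Ttr made up nearly all of that sum (13443 FPKM for CSAA, 6364 for CDAA), beside 179 and 102 for Hnf4a. The hepatocyte markers Alb, Apoa1, Apob, Serpina1, Cps1 and Cyp2e1 were not in the table, which does not show that they were unchanged. Macrophage and Kupffer cell markers, relevant because Kmo and Kynu are also expressed in myeloid cells, were listed for 3 of 8, all higher, with a sum of 16.8 FPKM for CSAA and 85.3 for CDAA in the authors' deposited table; Lyz2 (2.68 ± 0.32) and Cd68 (1.61 ± 0.20) led them. Bile duct markers were higher for 5 of 6 (sum 9.85 to 62.9 FPKM), led by Cftr (5.003 ± 0.39) and Spp1 (3.72 ± 0.37), in the authors' deposited table. Stellate cell markers were higher for 4 of 6 (9.06 to 30.9 FPKM), led by Col1a1 (3.32 ± 0.37) and Des (1.68 ± 0.34), in the authors' deposited table. Dendritic cell markers were higher for 2 of 5, Itgax (2.50 ± 0.27) and Flt3 (1.20 ± 0.36), with a sum of 0.798 FPKM for CSAA and 3.80 for CDAA, in the authors' deposited table. The 1 of 7 lymphocyte markers, Cd8a, was at 1.35 ± 0.41 (0.750 to 2.09 FPKM) in the authors' deposited table. Endothelial markers split, with Vwf at 1.15 ± 0.27 and Kdr at -0.96 ± 0.11 (2 of 6; sum 27.2 to 20.0 FPKM) in the authors' deposited table. No listed marker was at 0 in either group. Shares over all genes were 57.1% higher and 42.9% lower in the authors' deposited table, and the marker lists were not tested against them. The part of cell composition in the falls of the 6 enzymes was not tested.

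The genes whose pair of group levels was most like that of each enzyme were found by Euclidean distance over the log2 FPKM of CSAA and CDAA in the authors' deposited table, that is, over 2 values. Azgp1 was nearest to Tdo2 (distance 0.0116), and Tdo2 and Hpd lay 0.0952 apart. Aldh9a1 (0.0694) and Nr1h4 (0.146) were nearest to Kmo, and Gamt (0.122) and Hsd17b10 (0.126) to Haao. Hba-a2 (0.0568), 1 of several near-identical globin genes, and Hsd17b13 (0.107) were nearest to Fah, and Chic1 (0.196) and Mbnl3 (0.204) to Ido2.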

How the data were processed

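Per the labels' protocols, Trizol was used to extract liver RNA and an Illumina TruSeq kit to make the libraries. The submitters' processing notes name the authors' build, rn6, and list TopHat2, FastQC, Cufflinks, edgeR and DESeq2 without roles; versions, counter, annotation and strandedness: not given in the sources used here. Per the file headers, the deposited columns are the authors' DESeq2 mean normalised count (a signal), log2 fold change, SE, Wald score and p-values, their edgeR log2 fold change, mean log2 CPM and p-values, and their Cufflinks group values, log2 ratio, test score, p- and q-values. The authors' Cufflinks group values were read as FPKM, which that program writes; the header names no unit. The header names the groups of the FPKM columns, and the authors' DESeq2 sign matched CDAA over CSAA in them for 2457 of 2462 genes, and the authors' edgeR sign was that of DESeq2 for all 2462.

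No test across rats was run, because the table pools them: folds, SE and adjusted p are the authors', and selection on 3 tests tends to overstate small folds. The smallest absolute log2 fold change in the table was 0.599. Dividing the authors' mean normalised count by their mean CPM gave a median of 14075500 counted reads per library; the depth of each rat is unknown. Intervals are the fold ± 1.96 SE, and rats numbered within a diet are separate animals by their titles, with no statement that a number pairs them.

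The members and the 13 gene and 7 marker lists were chosen with earlier results of these data known. Named by rule were the 6 members, every listed gene of 7 pathway lists, the 2 largest changes of each other list, and the 2 nearest genes per member; some genes are not reported here and were left out of the lists and counts. Symbols were matched directly, by older symbols or by synonyms of the RefSeq table of GRCr8, which held all 6 members. Promoters were scanned over 250 bases before the start. The count of genes by direction and the motif search were tested on simulated data, and the matching of symbols was not. Alternatives were the other programs, a 2-fold minimum, a limit of 0.001 in all 3 programs, a 5 FPKM minimum and leaving out the members. Python 3.11.15, pandas 2.3.3, numpy 2.4.6 and matplotlib 3.10.9 were used.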

Additional observations from a re-analysis of the deposited data

How the results depend on the processing

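No paired analysis was possible because the table holds 1 value per diet group; for the same reason leaving out single rats was not run. The 6 enzymes were lower by the authors' deposited edgeR and Cufflinks values too. The selection of the table largely fixed this, because all its genes had passed 0.01 in all 3 programs. The edgeR sign was that of DESeq2 for all 2462 genes. All 6 enzymes stayed in the count at 2-fold, at 0.001 in all 3 programs and at a minimum of 5 FPKM. The count of lower genes over the 7 lists moved from 30 to 16 at 2-fold and to 18 at 0.001, and by no more than 1.5 times with the other programs, the 5 FPKM minimum or the members left out. For the kynurenine list it moved from 11 to 7 at 2-fold, to 7 at 0.001 and to 7 without the members, and for phenylalanine and tyrosine from 4 to 3, 3 and 2. Fewer genes qualify under these settings by construction. At 2-fold no tetrahydrobiopterin gene was left, and the NAD list fell from 7 to 2. No direction reversed. Of the 6 enzymes Ido2 had the lowest mean normalised count, 66.0 in the authors' deposited table.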

Other observations

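Genes beside the enzymes were looked up after the values were seen. Of the 12 nearest protein-coding neighbours in GRCr8, 2 were in the authors' deposited table. Fh, fumarate hydratase, which acts on the fumarate that Fah releases, lies next to Kmo; the authors' deposited table put it at 78.4 FPKM in CSAA, 38.0 in CDAA and a log2 fold change of -1.04 ± 0.17 (SE; DESeq2 adjusted p = 1.12e-08). Psmd9, a proteasome assembly factor beside Hpd, went from 17.1 to 9.90 FPKM, or -0.75 ± 0.15 (SE; DESeq2 adjusted p = 7.50e-06), in the authors' deposited table. Ido1, the neighbour of Ido2, and Opn3, on the other side of Kmo, were not in the table.

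Ratios between steps, from the FPKM of the authors' deposited table and without an error, were as follows. Qprt exceeded Acmsd by 6.92 times in CSAA and by 11.6 times in CDAA in the authors' deposited table. Kynu exceeded Kmo by 2.25 times in CSAA and by 1.64 times in CDAA in the authors' deposited table. Hpd exceeded Fah by 2.51 and 2.15 times in the authors' deposited table. Whether these ratios differ between diets was not tested.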
